A study of Mus musculus with 6 samples.

Results

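The 41 genes described here are 13 WNT ligands, 14 receptors and co-receptors, 8 secreted or membrane inhibitors and 6 genes known to respond to WNT signalling. They were chosen by name, with earlier results of these data known. Each was read by the brightest of its probe sets that carry a single gene symbol. All 41 were found among 18193 genes on the arrays. The study asked which genes are under the control of LMX1B, the LIM homeodomain factor that sets dorsal identity in limb mesenchyme. RNA came from the proximal part of mouse hindlimb buds, about 500 µm of tissue, at E11.5 (embryonic day), in the 129Sv strain. There were 3 wild-type pools and 3 Lmx1b -/- pools (Lmx1b-null below), 1 array each, and every pool joined both hindlimb buds of 3 embryos, 6 buds in all. The labels do not say how the null allele was made, and a pool hides the spread between its embryos. The separate pools were taken as biological replicates.

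WNT proteins are lipid-modified secreted signals. In the canonical branch they bind a Frizzled receptor with an LRP5 or LRP6 co-receptor and stabilise beta-catenin, which acts with TCF and LEF factors on target genes; in other branches they act through Frizzled and ROR receptors on cell polarity and movement. In the limb bud, WNTs from the ectoderm maintain the apical ridge and keep the underlying mesenchyme undifferentiated, WNT5A directs outgrowth, and WNT7A from dorsal ectoderm turns on Lmx1b in the mesenchyme beneath it.

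The factors that carry the canonical signal to DNA recognise the letters CTTTGA, so the promoters of 4 members are shown, with CTTTGA or its reverse complement TCAAAG in capitals. Sp5 and Lef1 are the response genes whose promoters hold it, and Dkk1 and Frzb are the inhibitors with the largest difference in each direction between the genotypes. The sequences are the 250 bases before the start site from RefSeq on GRCm38.p6, 5′ to 3′ on the gene's strand: Sp5 at chr2:70474673-70474922 (plus strand), Lef1 at chr3:131156044-131156293 (plus), Dkk1 at chr19:30549497-30549746 (minus) and Frzb at chr2:80447397-80447646 (minus).
Sp5: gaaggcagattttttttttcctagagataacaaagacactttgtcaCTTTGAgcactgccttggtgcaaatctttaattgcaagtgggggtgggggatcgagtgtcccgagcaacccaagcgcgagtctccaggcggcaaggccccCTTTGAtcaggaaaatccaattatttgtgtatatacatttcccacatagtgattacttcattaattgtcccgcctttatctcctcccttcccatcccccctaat
Lef1: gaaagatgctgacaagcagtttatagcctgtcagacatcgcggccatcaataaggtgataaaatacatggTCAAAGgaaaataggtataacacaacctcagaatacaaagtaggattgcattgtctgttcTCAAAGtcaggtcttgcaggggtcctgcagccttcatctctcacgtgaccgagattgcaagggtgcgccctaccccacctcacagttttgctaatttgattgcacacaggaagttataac
Dkk1: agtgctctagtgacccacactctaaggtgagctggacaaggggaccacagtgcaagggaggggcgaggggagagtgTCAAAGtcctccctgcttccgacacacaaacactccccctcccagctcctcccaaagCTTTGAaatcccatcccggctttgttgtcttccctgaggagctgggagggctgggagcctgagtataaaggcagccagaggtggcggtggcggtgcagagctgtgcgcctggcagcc
Frzb: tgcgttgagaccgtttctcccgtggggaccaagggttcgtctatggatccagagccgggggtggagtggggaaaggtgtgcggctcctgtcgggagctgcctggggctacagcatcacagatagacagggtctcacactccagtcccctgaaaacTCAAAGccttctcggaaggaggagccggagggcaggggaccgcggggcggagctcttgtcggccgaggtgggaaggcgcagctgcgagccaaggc
The search covered both strands from 250 bases before to 50 after each start site. Promoters were found in that table for 28 of the 41 members, 34 promoters in all. Of these, 8 promoters of 8 genes held CTTTGA (23.5%), against 16.0% of all 32851 promoters of the same length. The other 4 genes were the ligands Wnt5b and Wnt11 and the receptors Fzd1 and Ror1. In Sp5 the matches began at positions -204 and -104 from the start site, in Lef1 at -180 and -120, in Dkk1 at -174 and -117 and in Frzb at -95. The palindromic homeodomain core TAATTA, which LMX1B can bind, was in 0 of the 34 member promoters and in 5.29% of all promoters. With only 34 promoters, 0 matches cannot be told apart from that share. A match is a run of letters, not a measured binding site.

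No member passed the threshold of an adjusted p of 0.05 between the genotypes, so none is described as changed. With limma, 0 of 41 were called (adjusted p from 0.338 upward), against 0.104% of all genes (3, or 0.0165%, higher and 16, or 0.0879%, lower in null pools). At an unadjusted limma p under 0.05 there were 11 members (26.8%), 7 higher and 4 lower in null pools, against 9.80% of all genes (5.92% higher and 3.88% lower). Of the 41, 29 were higher in null pools, against 57% of all genes. Of the 34 members above the median of probe set means, 24 were higher. Among all 10995 genes above it, 5486 were higher and 5509 lower. Null values lay wholly outside the wild-type range for 14 of the 41, 10 above and 4 below it. That held for 14.6% of all genes (9.16% above and 5.44% below). The list was chosen with earlier results of these data known, so these shares describe it and are no test of it. Of the 10 Frizzled receptor genes 8 were higher, and the 8 inhibitors divided evenly. The differences were small: Dkk1 was 1.26-fold and Fzd6 1.25-fold lower, Frzb was 1.25-fold higher, and no member differed by more than 0.5 on the log2 scale in its brightest probe set, which 1.06% of all genes did. The smallest p that exact permutation of 3 against 3 pools allows for 1 gene is 0.1, so p-values are those of limma.

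Values are RMA values on a log2 scale, differences are Lmx1b-null minus wild type, and errors are SDs over n = 3 pools. Probe sets bind their targets with unequal strength, so levels are compared between genotypes and never between genes. The lower quartile of all probe set means, 3.33, is used as a mark of signal near background. Only Wnt3 among the members lay under it, 6 lay between it and the median of 4.98, and 34 lay above. RMA compresses differences near the bottom of the range. Fewer cells of a type and less RNA per cell cannot be told apart in such bulk tissue.

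Some facts of the whole series bear on these values. The Lmx1b transcript read 7.58 to 8.17 in wild-type pools and 4.23 to 4.62 in null pools in its brighter probe set. The hindlimb factor genes Tbx4 and Pitx1 stood at 10.49 and 10.27 in wild-type pools and 10.20 and 10.11 in null pools, and the forelimb gene Tbx5 at 4.27 and 4.14. Xist, the RNA of the inactive X chromosome in females, read 4.68 and 4.72 in wild-type pools 1 and 3. It read 9.88 in wild-type pool 2 and 9.16 to 10.79 in the null pools. This marker of female tissue was thus high in every null pool and in 1 wild-type pool. The Xist level partly follows genotype, so a fit that holds both cannot fully separate sex from genotype. When the fit also held the Xist level, 4 members rather than 11 were under an unadjusted p of 0.05 (9.76%), and 6.00% of all genes were. Wild-type pool 1 was the lowest of the 3 wild-type pools for 27 of the 41 members (65.9%) and for 43.1% of all genes. The count of 11 became 6 without wild-type pool 2 (all genes 7.63%) and 7 without null pool 1 (7.44%). It stayed at 11 without wild-type pool 1, but the members higher in null pools then numbered 23 instead of 29.

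**Figure D1:**
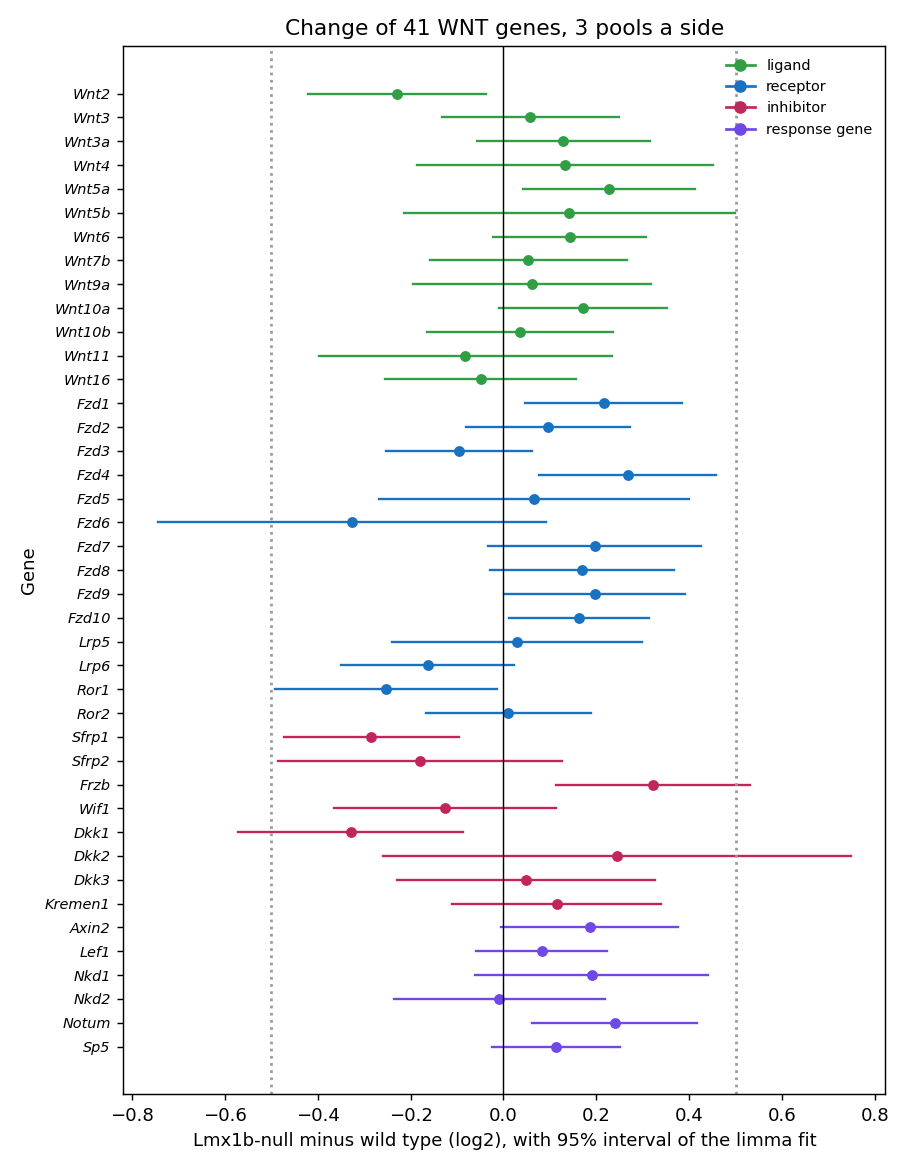
Difference between the genotypes (Lmx1b-null minus wild type, log2) for each of the 41 WNT genes, as a point with the 95% interval of the limma fit to its brightest probe set, coloured by class; dotted lines mark 0.5 in size. The intervals of 37 genes stay inside the dotted lines, and those of Fzd6, Frzb, Dkk1 and Dkk2 cross one of them.

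The 95% intervals below are those of each member's brightest probe set. None reached 1 in size, which is a 2-fold difference. For 37 members the whole interval lay within 0.5, or 1.41-fold. The lowest bound was -0.74, for Fzd6, and the highest 0.75, for Dkk2. Both had a wide wild-type spread, with SDs of 0.40 and 0.50. Dimmer probe sets of some of the 37 reached further: the third brightest of Sfrp1 had an interval of -0.86 to -0.34, and a dimmer one of Wnt5a and of Wnt6 had upper bounds of 0.58 and 0.61.

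Among the 13 ligands, 10 were higher and 3 lower in null pools, with a median difference of 0.06 against 0.02 over all genes. Wnt5a, the non-canonical ligand needed for limb outgrowth, read 8.69, 8.90 and 8.90 in the wild-type pools, numbers 1 to 3 in order here and below, and 8.97, 9.11 and 9.08 in the null pools. All null pools lay above all wild-type pools. The means were 8.83 ± 0.12 and 9.05 ± 0.08, a difference of 0.23 (95% interval 0.04 to 0.41; SE 0.08; limma adjusted p = 0.429). Its 3 dimmer probe sets differed by 0.14, 0.18 and 0.30 in the same direction. Wnt2, a ligand better known from lung and heart, read 4.43, 4.61 and 4.59 in wild-type and 4.35, 4.41 and 4.18 in null pools. It was the ligand with the lowest difference, -0.23 (95% interval -0.42 to -0.04; SE 0.08; limma adjusted p = 0.443), and its groups did not overlap. Both of these differences are 1.17-fold in size.

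Several ligands are made in limb ectoderm. Wnt10a, one of these, read 4.02, 4.23 and 4.22 in wild-type pools and 4.37, 4.24 and 4.37 in null pools, below the median of all probe sets. The null pools were all higher, by as little as 0.01 between the nearest pools, and the difference was 0.17 (95% interval -0.01 to 0.35; SE 0.08; limma adjusted p = 0.527). It was 0.10 without wild-type pool 1 and 0.09 with Xist added. The other ectodermal ligand genes among the members overlapped between the genotypes. From the wild-type to the null mean, Wnt6 differed by 0.14 (6.30 ± 0.05 to 6.45 ± 0.10) and Wnt7b by 0.05 (6.99 ± 0.16 to 7.05 ± 0.07). Wnt7a, which is not a member, also overlapped and differed by 0.17 (6.21 ± 0.07 to 6.38 ± 0.17, limma adjusted p = 0.573). Wnt10b differed by 0.03 (5.19 ± 0.14 to 5.22 ± 0.08) and Wnt3, which lay near background, by 0.06 (2.72 ± 0.13 to 2.77 ± 0.08). Wnt4 and Wnt9a, both known from developing joints, differed by 0.13 (6.91 ± 0.31 to 7.04 ± 0.05) and 0.06 (5.62 ± 0.21 to 5.68 ± 0.10). For both, as for Wnt7b, the difference was below 0 without wild-type pool 1 (-0.04, -0.06 and -0.04). Wnt3a, a canonical ligand gene, stood at 0.13 (4.44 ± 0.06 to 4.57 ± 0.13). The non-canonical ligand gene Wnt11 was at -0.08 (7.03 ± 0.28 to 6.95 ± 0.13) and Wnt16 at -0.05 (4.03 ± 0.16 to 3.98 ± 0.06). Wnt5b, a relative of Wnt5a, stood at 0.14 (5.83 ± 0.05 to 5.98 ± 0.35) in its brighter probe set but at -0.19 in the other. Beside these values stands the summed level of 18 surface ectoderm and apical ridge markers. It was 1360, 1655 and 1620 in wild-type pools 1 to 3 and ran from 1617 to 1788 in null pools. Wild-type pool 1 alone thus set the low end. Of the 18, 15 were higher in null pools, against 57% of all genes, none was called and none lay near background. The part of ectoderm content in the ligand values was not tested.

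**Figure D2:**
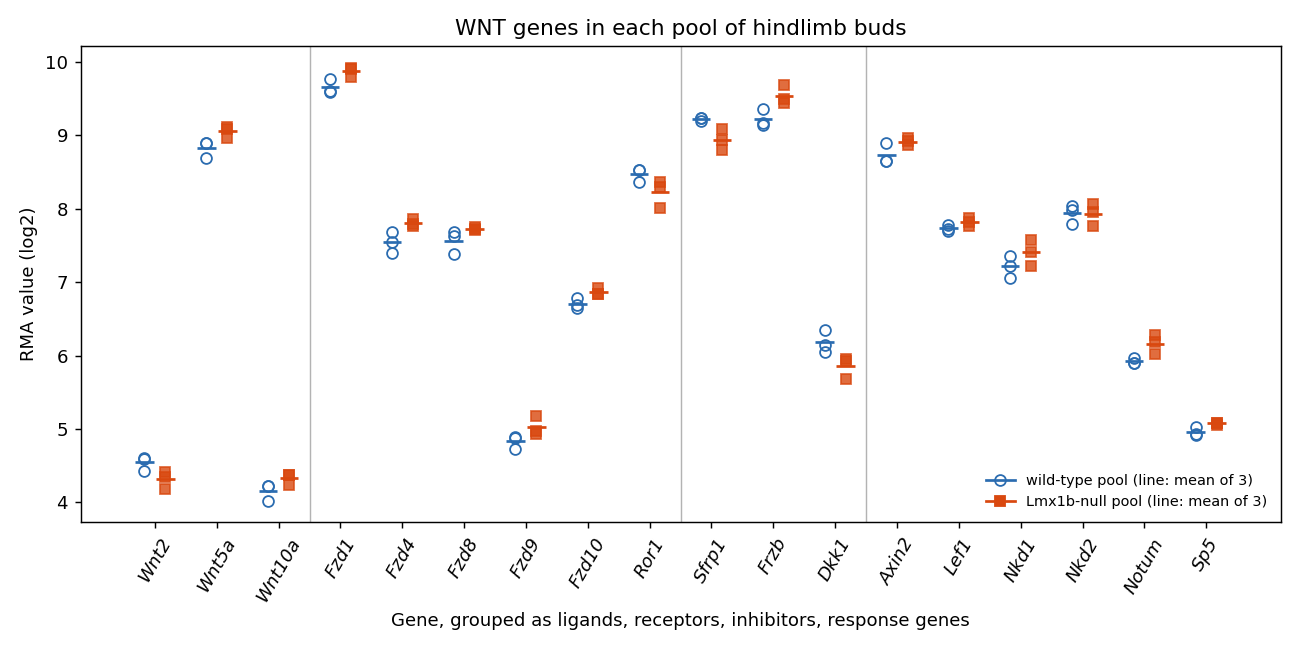
RMA values (log2) of 18 WNT genes in each of the 6 pools; open circles are wild-type pools, filled squares Lmx1b-null pools, and short lines group means of 3. Genotypes are separate but close for genes such as Wnt5a, Fzd4 and Frzb, and overlap for Axin2, Lef1, Nkd1 and Nkd2.

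Of the 10 Frizzled genes, which encode the seven-pass WNT receptors, 8 were higher and 2 lower in null pools. Fzd4, which in vessels also serves the ligand norrin, read 7.40, 7.69 and 7.54 in wild-type pools and 7.80, 7.77 and 7.86 in null pools. Its highest wild-type pool, pool 2, came within 0.08 of the lowest null pool. The means were 7.54 ± 0.14 and 7.81 ± 0.05, a difference of 0.27 (95% interval 0.08 to 0.46; SE 0.08; limma adjusted p = 0.385), or 1.20-fold, the highest among the receptors, though not past the threshold. Its other probe sets gave 0.11 and 0.10. Adding Xist to the fit gave 0.12. The 12 endothelial markers were all lower in null pools, against 7824 of all 18193 genes, and none passed the threshold. Their summed level was 1329 to 1518 in wild-type and 1226 to 1272 in null pools. None lay near background, and their part in the Fzd4 value was not tested.

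Fzd1 read 9.59, 9.61 and 9.77 in wild-type pools and 9.92, 9.79 and 9.90 in null pools, without overlap. Its difference was 0.22 (95% interval 0.05 to 0.38; SE 0.07; limma adjusted p = 0.421), and the dimmer probe set gave 0.14, also without overlap. Fzd10 read 6.79, 6.69 and 6.64 in wild-type pools against 6.84, 6.84 and 6.93 in null pools, a difference of 0.16 (95% interval 0.01 to 0.31; SE 0.07; limma adjusted p = 0.484). For Fzd9, which lay below the median of all probe sets, the wild-type values were 4.73, 4.88 and 4.89 and the null values 5.18, 4.94 and 4.98. The groups were 0.05 apart at their nearest and the difference was 0.20 (95% interval 0.0015 to 0.39; SE 0.08; limma adjusted p = 0.507). Without null pool 1 it was 0.12. Fzd8 had 7.38, 7.63 and 7.68 in wild-type pools and 7.71, 7.73 and 7.75 in null pools, a tight null group just above the highest wild-type pool, with a difference of 0.17 (95% interval -0.03 to 0.37; SE 0.09; limma adjusted p = 0.561). It was 0.08 without wild-type pool 1 and 0.10 with Xist added. These 4 and Fzd4 are the 5 Frizzled genes whose genotypes did not overlap, all higher in null pools, against 9.16% of all genes with null pools wholly higher.

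The other 5 Frizzled genes overlapped. Fzd7 stood at 0.20 (8.97 ± 0.16 to 9.17 ± 0.12) and Fzd2 at 0.10 (10.62 ± 0.13 to 10.72 ± 0.01). Fzd5, dim in both genotypes, was at 0.07 (3.86 ± 0.24 to 3.93 ± 0.22). Fzd3, a planar polarity receptor gene, was at -0.10 (8.33 ± 0.08 to 8.23 ± 0.06) in its brightest probe set, while the next brightest gave 0.15. Fzd6, its close relative, had a difference of -0.33 (95% interval -0.74 to 0.09; SE 0.18; limma adjusted p = 0.587), which was -0.10 without wild-type pool 2, the pool that read 7.11 against 6.35 and 6.52 in the other wild-type pools. Adding Xist to the fit gave -0.73; over all alternatives the limma adjusted p ran from 0.379 to 0.859.

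Ror1 and Ror2 encode receptor tyrosine kinases for WNT5A. Ror1 read 8.37, 8.53 and 8.53 in wild-type pools and 8.37, 8.005 and 8.30 in null pools. The highest null pool lay only 0.01 under the lowest wild-type pool, and the difference was -0.25 (95% interval -0.49 to -0.01; SE 0.10; limma adjusted p = 0.491). Without null pool 2 it was -0.14. Its other 2 probe sets gave -0.13 and -0.06. For Ror2 the means were 8.38 ± 0.10 and 8.39 ± 0.09, a difference of 0.01 (95% interval -0.17 to 0.19; SE 0.08; limma adjusted p = 0.979), and its dimmer probe set gave 0.19. The co-receptor gene Lrp6 had means of 8.70 ± 0.05 and 8.54 ± 0.14, a difference of -0.16 (95% interval -0.35 to 0.02; SE 0.08; limma adjusted p = 0.551). Lrp5 had means of 5.05 ± 0.17 and 5.08 ± 0.19, a difference of 0.03 (95% interval -0.24 to 0.30; SE 0.12; limma adjusted p = 0.96).

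The inhibitors divided evenly, 4 higher and 4 lower in null pools, and held the members with the smallest p in each direction. Frzb, a secreted decoy with a Frizzled-like domain that is strong in early cartilage, read 9.14, 9.17 and 9.35 in wild-type pools and 9.50, 9.69 and 9.44 in null pools. Every null pool was above every wild-type pool. The means were 9.22 ± 0.12 and 9.54 ± 0.13, a difference of 0.32 (95% interval 0.11 to 0.53; SE 0.09; limma adjusted p = 0.338), ranked 402 of 18193 genes by p. The second Frzb probe set gave 0.35, again without overlap. Over the alternatives the Frzb difference ran from 0.25 to 0.40 and the adjusted p from 0.225 to 0.715.

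Sfrp1, a decoy of the same family, read 9.24, 9.20 and 9.23 in wild-type pools and 9.09, 8.79 and 8.93 in null pools. The wild-type pools lay close together and all null pools were lower. The means were 9.22 ± 0.02 and 8.94 ± 0.15, a difference of -0.28 (95% interval -0.47 to -0.10; SE 0.08; limma adjusted p = 0.351), or 1.22-fold. All 5 of its probe sets were lower in null pools, and in 3 of them the genotypes did not overlap. The third brightest differed most, with 8.23, 7.86 and 8.23 in wild-type pools and 7.39, 7.56 and 7.57 in null pools, a difference of -0.60 that did not pass over all probe sets (adjusted p = 0.159). No member probe set of the 86 passed, against 0.0844% of all 45037. Sfrp2, the third decoy, was at -0.18 (10.29 ± 0.29 to 10.11 ± 0.05), and at -0.34 without wild-type pool 1. Its interval ran from -0.48 to 0.13.

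Dkk1, which blocks LRP5 and LRP6, read 6.36, 6.14 and 6.05 in wild-type pools and 5.95, 5.93 and 5.68 in null pools. The null pools were all lower, the nearest pools 0.10 apart. The means were 6.18 ± 0.16 and 5.85 ± 0.15, a difference of -0.33 (95% interval -0.57 to -0.09; SE 0.10; limma adjusted p = 0.404), and the dim second probe set gave -0.28. Dkk2 was at 0.24 with wild-type pool 1 at 5.79 and the other 5 pools between 6.47 and 6.75; without that pool it was -0.04. Dkk3, a divergent relative, was at 0.05 (5.04 ± 0.14 to 5.09 ± 0.22). Kremen1, a Dickkopf receptor gene, was at 0.11 (6.43 ± 0.06 to 6.55 ± 0.19), and one of its dim probe sets at 0.23. Wif1, a secreted WNT-binding factor gene, was at -0.13 (8.01 ± 0.16 to 7.89 ± 0.14).

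Cartilage and joint markers are given beside the inhibitors. Of these, 12 of 14 were lower in null pools and 1, the cartilage glycoprotein gene Cnmd, passed (6.74 to 4.98, limma adjusted p = 0.0354). With 1 pool left out, the Cnmd difference ran from -1.97 to -1.58. It then passed only without wild-type pool 1 (limma adjusted p = 0.00804), and otherwise the limma adjusted p was 0.0789 to 0.171. The summed level of the 14 was 4581, 5767 and 6101 in wild-type pools 1 to 3 and 4968 to 5338 in null pools. Bright genes weigh most in such a sum. The 2 that were higher in null pools, Col2a1 (11.14 in both genotypes) and Col9a1 (10.25 to 10.33), were the brightest of this list. The summed level of 12 muscle markers was 1054, 1576 and 1327 in wild-type pools 1 to 3 and 1587 to 1788 in null pools. Of the 12, 10 were higher and none was called. Of the cartilage and muscle lists, 1 marker each lay near background. Their part in the inhibitor values was not tested.

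**Figure D3:**
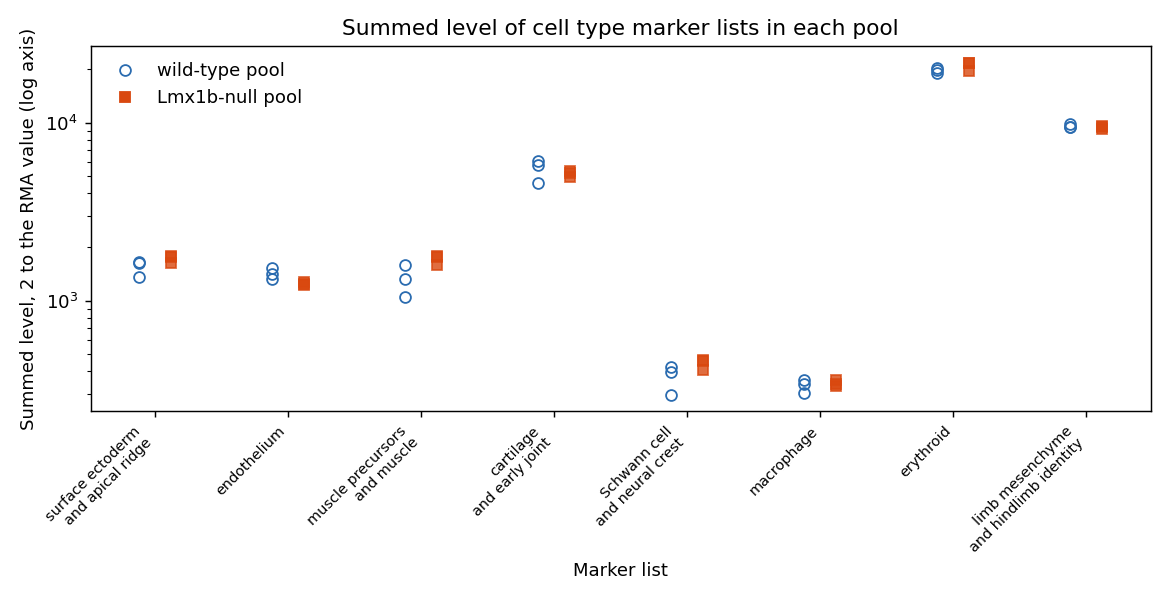
Summed level (2 to the power of the RMA value, log axis) of 8 marker lists in each pool; open circles are wild-type pools and filled squares Lmx1b-null pools. Endothelial sums are lower and muscle sums higher in all null pools, and the ectoderm and cartilage sums overlap. Bright genes weigh most in each sum.

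The response genes report on the canonical signal, and 5 of the 6 were higher in null pools, against 57% of all genes. The median difference of the 6 was 0.15, against 0.02 over all genes. All 6 lay above the median of probe set means. Among all 10995 genes above it, 5486 were higher and 5509 lower, with a median difference of -0.00012. Notum, which encodes an enzyme that strips the lipid from WNTs, read 5.97, 5.91 and 5.90 in wild-type pools and 6.28, 6.19 and 6.02 in null pools. All null pools were higher. The means were 5.92 ± 0.04 and 6.16 ± 0.13, a difference of 0.24 (95% interval 0.06 to 0.42; SE 0.08; limma adjusted p = 0.404), or 1.18-fold. Sp5, a transcription factor gene induced by WNT, read 5.03, 4.92 and 4.94 in wild-type pools and 5.09, 5.06 and 5.09 in null pools, again separate, with a difference of 0.11 (95% interval -0.02 to 0.25; SE 0.06; limma adjusted p = 0.57). Each of these genes had 1 probe set.

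Axin2, the feedback inhibitor gene most used as a WNT reporter, read 8.65, 8.65 and 8.90 in wild-type pools and 8.96, 8.93 and 8.86 in null pools. Wild-type pool 3 lay among the null pools. The difference was 0.19 (95% interval -0.01 to 0.38; SE 0.08; limma adjusted p = 0.517), and the dimmer probe set gave 0.16 without overlap. Lef1, a nuclear partner of beta-catenin, had 7.70, 7.78 and 7.73 in wild-type and 7.87, 7.82 and 7.77 in null pools, which overlapped, with a difference of 0.08 (95% interval -0.06 to 0.22; SE 0.06; limma adjusted p = 0.699). Adding Xist to the fit gave 0.05.

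Nkd1 and Nkd2 encode inhibitors of Dishevelled. Nkd1 read 7.06, 7.36 and 7.23 in wild-type and 7.58, 7.23 and 7.41 in null pools, with null pool 2 inside the wild-type range and a difference of 0.19 (95% interval -0.06 to 0.44; SE 0.11; limma adjusted p = 0.599). It was 0.11 without wild-type pool 1, 0.10 without null pool 1 and 0.04 with Xist added. Its 3 dimmer probe sets gave -0.06, -0.05 and 0.03. Nkd2 read 7.79, 8.04 and 7.98 in wild-type and 7.96, 8.06 and 7.76 in null pools, which overlapped throughout, with a difference of -0.01 (95% interval -0.24 to 0.22; SE 0.10; limma adjusted p = 0.985). Its other probe sets lay between -0.10 and 0.04.

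**Figure D4:**
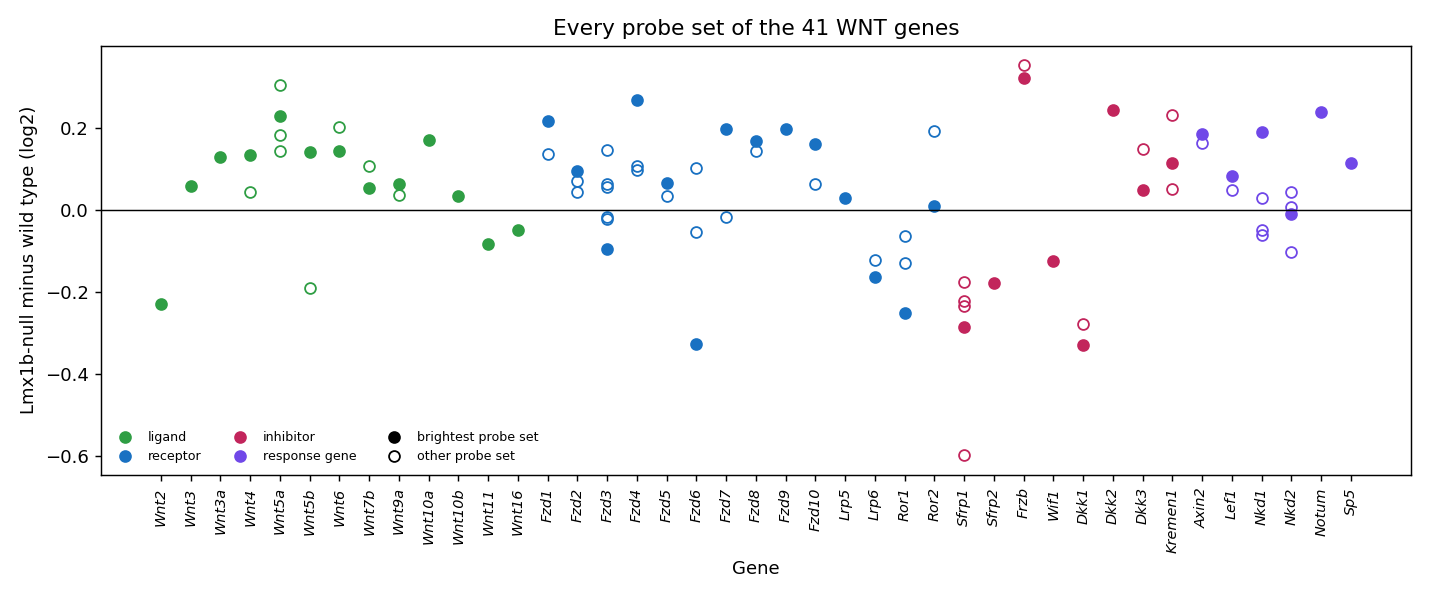
Difference between the genotypes (log2) for every probe set of the 41 WNT genes; filled points are the brightest probe set of a gene and open points the others. Sfrp1 has its 5 points below 0 and Wnt5a its 4 above, while those of Fzd3, Fzd6, Nkd1 and Nkd2 lie on both sides.

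Of the 27 members with several probe sets, 21 had all of them on 1 side of 0. The exceptions were Wnt5b, Fzd3, Fzd6, Fzd7, Nkd1 and Nkd2. The reason was not tested.

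The rest of the pathway was read from lists of 103 further genes, of which 100 were measured and 0 passed; 13 had an unadjusted limma p under 0.05 (9 higher, 4 lower), against 9.80% of all genes. The median difference was 0.03. The R-spondin axis, whose secreted members strengthen WNT signalling by keeping Frizzled receptors at the surface, had 4 of 9 under that p, 3 higher and 1 lower in null pools. In it Rspo1 stood at 0.94 (adjusted p = 0.165) and Rnf43, a ubiquitin ligase that removes Frizzled receptors, at 0.35 (adjusted p = 0.381). Rnf43 was dim, with a mean of 3.61 over all pools. The R-spondin gene Rspo3 was the lower one, at -0.28 (adjusted p = 0.404), with no overlap between the genotypes; Rspo2 was at 0.35 (adjusted p = 0.443). Of 11 other inhibitors, 10 were higher, against 57% of all genes, and the median difference of the list was 0.05. Sostdc1 led at 0.52 (7.53 ± 0.40 to 8.05 ± 0.05, limma adjusted p = 0.42), followed by Apcdd1 at 0.35 (limma adjusted p = 0.471). Without wild-type pool 1 these 2 differences were 0.29 and 0.18.

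Of 31 cytoplasmic and nuclear components of the canonical branch, 0 had an unadjusted limma p under 0.05, with a median difference of 0.02; the smallest p belonged to Btrc, a ubiquitin ligase subunit that removes beta-catenin, at -0.18, and the corepressor gene Tle4, at 0.17 (adjusted p = 0.517 and 0.541). Btrc was at -0.11 without wild-type pool 3 and Tle4 at 0.09 without wild-type pool 1. Of 25 polarity and non-canonical components, 3 were under that p, with Camk2d, a calcium-dependent kinase gene, at -0.30 and the glypican gene Gpc3 at 0.47 (adjusted p = 0.231 and 0.298). Among 8 further ligand and secretion genes, Wnt8a, near background, was at -0.15 and Wls, which carries WNTs to the surface, at -0.14 (adjusted p = 0.506 and 0.53). Of 16 other response genes, 9 were higher and 7 lower in null pools, with a median difference of 0.03. In that list 3 were under that p, with Cdx2 at 0.21 and Fgf8, the apical ridge signal, at 0.28 (limma adjusted p = 0.42 and 0.47). Cdx2, Fgf8 and Camk2d were dim, with means of 3.75, 4.79 and 4.78 over all pools, below the median of 4.98. Without wild-type pool 1 Fgf8 was at 0.18.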

How the data were processed

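Messenger RNA from 6 pools of proximal hindlimb buds was read on single-colour arrays. The authors deposited log2 values, 1 for each probe set on each array. They used RMA, per the submitters' processing notes (version not given in the sources used here), and the log2 base was inferred from the range of the values. RMA equalises array distributions, so a shift of most transcripts would not show. Of 45101 probe sets, 64 controls were left out. Gene names came from the platform annotation: 34945 probe sets had 1 symbol, 932 several (not used) and 9160 were unnamed here. The brightest one-symbol probe set stood for each of 18193 genes. limma 3.58.1 in R 4.3.3 (lmFit, eBayes without trend or robust option) compared 3 null with 3 wild-type pools, two-sided, with Benjamini-Hochberg adjustment over all genes and a threshold of 0.05; a second fit took all 45037 probe sets. Of these steps, only the limma fit was tested on simulated data. Alternatives changed the scaling, variance model, array weights, probe set choice, filter on dim genes and threshold, left out each pool, blocked on pool number or added Xist to the fit. Intervals are 95%, unadjusted.

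Every member was named. Values in each pool were given for members with an unadjusted p under 0.05, without overlap, or in the response class. From each pathway list the 2 genes with the smallest p were named, with Rspo2, Rspo3 and Wnt7a added after their values were seen. Of the marker genes, only those that a result turns on were named. The members and lists were chosen with earlier results of these data known. Marker lists with no call were also read for Schwann cells and neural crest (5 of 6 measured genes higher, summed level 296 to 424 in wild-type and 410 to 466 in null pools), macrophages (5 of 8 higher, 302 to 360 and 333 to 359), erythroid cells (6 of 7 higher, 18862 to 20301 and 19360 to 21719) and limb mesenchyme (5 of 10 higher, 9389 to 9837 and 9208 to 9509). The Schwann cell sum was 296 in wild-type pool 1 and 424 and 395 in wild-type pools 2 and 3.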

Additional observations from a re-analysis of the deposited data

How the results depend on the processing

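With limma, 0 members were called under each of the 17 alternatives; the lowest adjusted p of any member was 0.225. Of the 41 members, 27 kept their sign under every alternative, among them all 11 with an unadjusted p under 0.05, and 14 changed it under at least 1. The genotypes of these 11 did not overlap, so leaving out a pool or weighting arrays could not turn their sign. The variance model, the threshold, the filter on dim genes and the pool block leave a difference unchanged. Only scaling, probe set choice and the Xist level could have turned it. Scaling turned 2 signs, of Ror2 when arrays were centred and of Nkd2 after repeated quantile normalization. The members at an unadjusted p under 0.05 numbered 6 to 11 with 1 pool left out and 4 when Xist was added to the fit. All genes called were 19 as analysed, 36 with an intensity trend, 36 with array weights, 47 at an adjusted p under 0.1 and 5 with the Xist level. They were 37, 7 and 7 without wild-type pools 1, 2 and 3, and 4, 10 and 9 without null pools 1, 2 and 3, so 4 to 37. With the pool number as a replicate block 9 genes and 0 members were called. Deviations of pools with the same number from their group means correlated at -0.256, -0.0948 and -0.154 over genes. Other pairings of the pools were not tested. Wnt3 had no value without _x_at and _s_at probe sets, nor the 7 dimmest members when only genes above the median were kept. The cause of these differences was not tested.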
